A study of Homo sapiens with 6 samples.

Results

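A set of 10 genes of the epithelial-mesenchymal transition is described in TOV21G, an established human line of ovarian clear cell carcinoma, with and without a hairpin against the RNA-binding protein gene MEX3A. They are the transcription factors ZEB1, ZEB2, SNAI1, SNAI2, TWIST1 and OVOL1, the cadherins CDH1 and CDH2, the surface protein EPCAM and the intermediate filament VIM. All 10 were found by symbol among the 42656 rows of the deposited table of raw read counts. Cells carried either a hairpin against MEX3A (shMEX3A, labelled as a MEX3A knockdown) or a scrambled one (shCtrl, labelled as wild type), with 3 libraries in each arm. Lentivirus delivered both hairpins (multiplicity of infection 50), and cells were lysed for RNA 3 days later, so the virus is common to the arms. Each arm is 1 hairpin in 1 cell line, and the labels do not say whether its 3 libraries came from separate cultures, so every p-value here reflects only how much these libraries vary, and that variation may be technical.

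In an epithelial-mesenchymal transition, cells joined by E-cadherin (the product of CDH1) loosen their contacts and take up a filament and matrix program that includes vimentin and often N-cadherin (CDH2). ZEB1, ZEB2, SNAI1 and SNAI2 are zinc finger repressors that bind E-boxes and are known for silencing CDH1, TWIST1 is a basic helix-loop-helix factor that works beside them, and OVOL1 is a zinc finger factor known for holding ZEB1 down. EPCAM, the epithelial cell adhesion molecule, marks simple epithelia and most carcinomas. Ovarian surface and tubal lineages are known for carrying epithelial and mesenchymal traits side by side.

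The ZEB1 and VIM loci are shown in sequence because each has an antisense transcript in the count table and the pairs behaved differently. The windows are those of RefSeq on GRCh38.p14, from 250 bases before to 50 bases after an annotated transcript start, written 5′ to 3′ on the strand of the gene, and 4 of the 10 genes matched the table. ZEB1 has several starts, and the one shown (chr10:31318966-31319265, plus strand) lies 121 bases from a start of ZEB1-AS1 on the minus strand, with 220 bases shared between the windows. Of the 7 ZEB1 windows 1 other also shares bases with a divergent ZEB1-AS1 window (206 bases, starts 107 bases apart), and the one with more shared bases is printed. VIM (chr10:17227991-17228290, plus strand) has a divergent start of VIM-AS1 1343 bases upstream and lies 1744 bases from another inside the gene, whose window (chr10:17229936-17230235, minus strand) is the VIM-AS1 one given. ZEB2 (chr2:144520070-144520369, minus strand) is given for comparison with ZEB1. Capitals mark CAGGTG on either strand, the E-box letters bound by ZEB and Snail factors, and GGGCGG on either strand, the GC box; no marked stretch overlaps another.
ZEB1: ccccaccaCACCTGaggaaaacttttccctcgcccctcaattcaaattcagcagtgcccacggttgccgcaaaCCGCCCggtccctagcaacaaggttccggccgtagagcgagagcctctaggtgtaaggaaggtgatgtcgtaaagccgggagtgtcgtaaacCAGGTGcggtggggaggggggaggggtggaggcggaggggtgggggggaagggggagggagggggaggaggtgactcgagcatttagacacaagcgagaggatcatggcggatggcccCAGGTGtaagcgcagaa
VIM: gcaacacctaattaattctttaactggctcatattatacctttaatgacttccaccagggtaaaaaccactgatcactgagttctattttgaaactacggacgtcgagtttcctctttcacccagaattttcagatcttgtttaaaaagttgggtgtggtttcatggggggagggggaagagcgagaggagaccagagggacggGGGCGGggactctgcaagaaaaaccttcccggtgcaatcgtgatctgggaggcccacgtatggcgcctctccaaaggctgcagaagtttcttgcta
VIM-AS1: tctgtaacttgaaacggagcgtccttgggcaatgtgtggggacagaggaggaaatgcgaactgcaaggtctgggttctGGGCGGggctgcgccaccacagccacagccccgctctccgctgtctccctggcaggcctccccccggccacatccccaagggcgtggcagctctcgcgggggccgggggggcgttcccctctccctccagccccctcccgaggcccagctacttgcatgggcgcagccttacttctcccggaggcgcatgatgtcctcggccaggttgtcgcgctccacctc
ZEB2: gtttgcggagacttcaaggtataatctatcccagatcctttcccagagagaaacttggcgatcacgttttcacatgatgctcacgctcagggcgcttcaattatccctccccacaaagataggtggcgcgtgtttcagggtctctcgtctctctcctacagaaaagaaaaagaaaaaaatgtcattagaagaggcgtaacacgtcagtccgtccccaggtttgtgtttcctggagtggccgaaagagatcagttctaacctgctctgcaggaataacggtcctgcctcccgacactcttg
The ZEB1 window holds 3 E-boxes, with first bases at -242, -85 and 33 from the start, and 1 GC box. Among the other ZEB1 windows 1 holds a single E-box. VIM and VIM-AS1 hold 1 GC box each and ZEB2 holds neither motif. Over the 35116 windows of the table, 20.6% hold at least 1 such E-box, 0.635% hold 3 or more, and 45.0% hold the GC box. These letter matches describe the windows and are not shown to be bound.

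Library totals ran from 34662635 to 48228216 counts. MEX3A was at 20.9 ± 1.31 CPM in shMEX3A cells and 69.0 ± 1.54 CPM in shCtrl cells (CPM, the read count scaled to library size after TMM normalisation; SD, n = 3 each), 3.31-fold lower. Markers of clear cell carcinoma and epithelium summed to 1224 to 1255 CPM in shMEX3A libraries and 1428 to 1464 CPM in shCtrl libraries over 10 genes, with PAX8 present in every library. The lower sum in shMEX3A cells was carried by ANXA4, at 214 ± 5.65 CPM in shMEX3A cells and 652 ± 19.0 CPM in shCtrl cells. Of the 9 tested markers, 6 rose and 2 fell (median log2 fold change 0.61), against 34.0% higher and 35.6% lower among all tested genes. Of markers of other cells, 5 of 12 leukocyte genes (CD3E, CD3D, MS4A1, FCGR3A and NKG7), 3 of 10 endothelial genes (KDR, CLDN5 and EMCN) and 1 of 8 mesothelial genes (ITLN1) had 0 counts in every library. The summed levels were 10.7 to 11.1 CPM against 7.64 to 8.72 CPM for leukocytes, 10.2 to 11.7 against 5.35 to 5.50 for endothelium, 53.4 to 56.4 against 35.04 to 38.45 for mesothelium and 28.96 to 30.45 against 39.3 to 41.6 for 12 fibroblast genes, none of which was at 0 throughout, shMEX3A first in each case. FBLN1, at 15.2 ± 1.495 CPM in shMEX3A cells and 31.4 ± 1.11 CPM in shCtrl cells, carried the lower fibroblast sum, and 3 of the 6 tested fibroblast genes rose (DCN by 0.90, COL6A3 by 1.30 and PDPN by 0.47 on the log2 scale). TIE1 carried most of the endothelial sum (9.83 CPM in shMEX3A cells, 4.41 CPM in shCtrl cells). CD68 carried most of the leukocyte sum (8.46 and 7.07 CPM), with 85.8% of its exon bases under other genes. MSLN (33.8 and 19.4 CPM) and BNC1 (15.5 and 11.9 CPM) carried most of the mesothelial sum, and LRRN4 also rose (0.938 and 0.298 CPM). The leukocyte gene PTPRC had 3 counts over shMEX3A libraries and 2 over shCtrl libraries. Whether RNA of other cells has a part in the values below was not tested.

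Of the 10 genes, 5 were lower in shMEX3A cells and none was higher, and the 5 included both the mesenchymal filament gene VIM and the epithelial cadherin gene CDH1. VIM, CDH1, ZEB2, TWIST1 and ZEB1 passed the test, SNAI1 and EPCAM did not, and SNAI2, CDH2 and OVOL1 fell below the low-count filter and were not tested. An adjusted p under 0.05 (edgeR quasi-likelihood test with Benjamini-Hochberg adjustment) was called in 69.7% of the 15679 genes tested, 34.0% higher and 35.6% lower. The 5 of 7 called here are thus close to the share of all tested genes, so the count of calls says nothing particular about these genes. All 5 calls were falls, but 7 genes are few. In the same 5 genes the libraries of the arms did not overlap, which held for 72.3% of all tested genes. The median log2 fold change was -0.44 over the 7 tested genes and -0.01 over all tested genes. In bulk RNA, fewer cells with a transcript and less transcript per cell cannot be told apart.

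**Figure D1:**
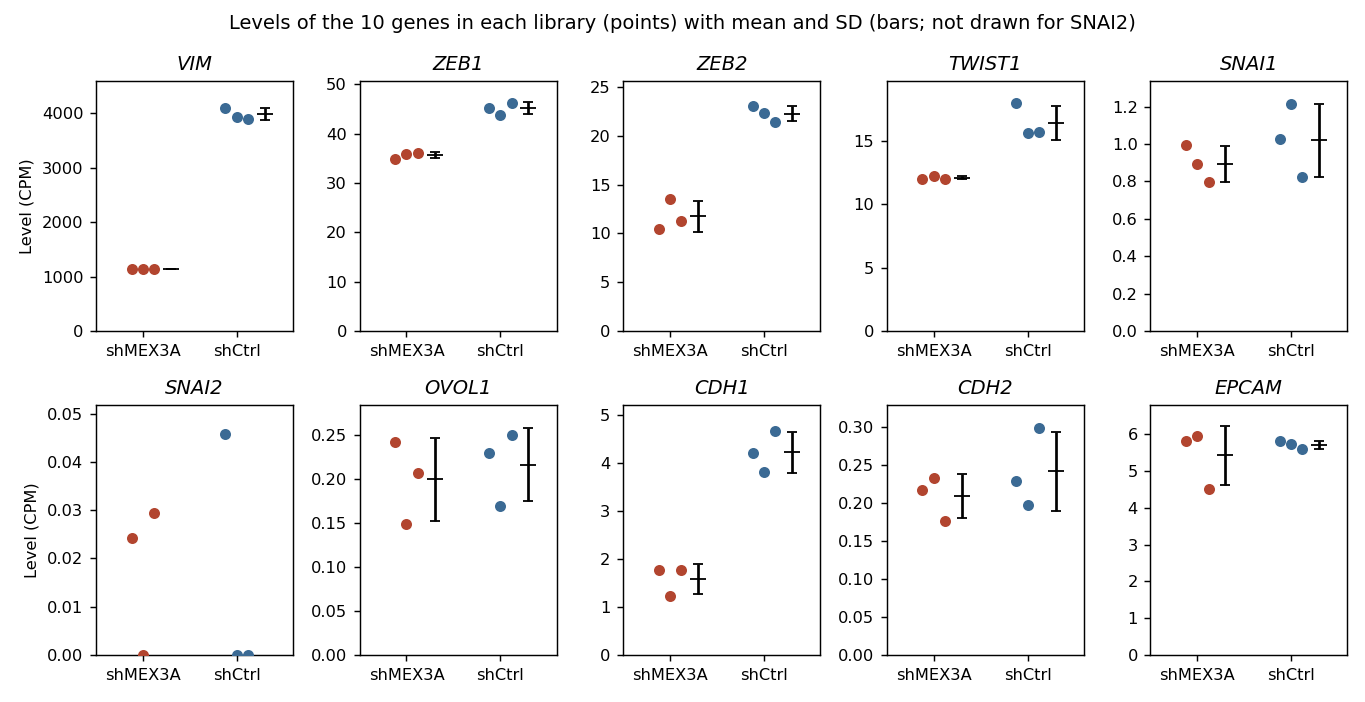
Level in CPM (linear axes from 0) of each of the 10 genes in the 3 shMEX3A libraries (red points) and the 3 shCtrl libraries (blue points), with the mean and SD beside them except for SNAI2. The arms are apart for VIM, ZEB1, ZEB2, TWIST1 and CDH1, and overlap for SNAI1, SNAI2, OVOL1, CDH2 and EPCAM.

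VIM, the type III intermediate filament of mesenchymal cells, fell most of the 5. Its level was 1136, 1139 and 1142 CPM in shMEX3A libraries, against 4106, 3940 and 3906 CPM in shCtrl libraries. The shMEX3A libraries lay within a few CPM of each other, and the gap between the arms was far wider than either spread. The fall was 3.498-fold (log2 fold change -1.81, SE 0.031, adjusted p = 1.58e-34, edgeR), and 174 of the tested genes had a more negative log2 fold change. VIM took 0.111% to 0.112% of all counts in shMEX3A libraries and 0.400% to 0.415% in shCtrl libraries. The gene lies on chromosome 10 from 17228259 to 17237593 (GRCh38, GENCODE 29), and 24.4% of its exon bases lie under exons of other genes, VIM-AS1 among them.

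VIM-AS1, transcribed from the opposite strand, fell with it. It had 11.1, 13.7 and 11.4 CPM in shMEX3A libraries, against 39.5, 44.8 and 38.7 CPM in shCtrl libraries (log2 fold change -1.75, SE 0.075, adjusted p = 4.52e-13, edgeR). The arms did not overlap. The 2 genes share 641 exon bases, which is 32.2% of VIM-AS1. VIM-AS1 counts came to 0.974%, 1.20% and 1.00% of VIM counts in shMEX3A libraries and 0.961%, 1.14% and 0.990% in shCtrl libraries, which overlap. The strand setting of the counting is not given in the sources used here, so reads of VIM and of VIM-AS1 cannot be told apart where they overlap, and what part this has in the fall of VIM-AS1 was not tested.

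ZEB2 fell more than ZEB1 among the repressors. ZEB2 had 10.4, 13.5 and 11.3 CPM in shMEX3A libraries, against 23.0, 22.3 and 21.4 CPM in shCtrl libraries. All shMEX3A values lay well below the shCtrl ones, and replicate 2 was the highest of its arm. The fall was 1.89-fold (log2 fold change -0.92, SE 0.074, adjusted p = 6.97e-12, edgeR). ZEB1 had 34.9, 35.9 and 36.0 CPM in shMEX3A libraries and 45.2, 43.9 and 46.3 CPM in shCtrl libraries. The arms did not overlap, but the distance was small, at 1.27-fold (log2 fold change -0.34, SE 0.044, adjusted p = 8.14e-09, edgeR). With offsets for GC content and transcript length the ZEB1 value was -0.22, still past the threshold.

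The balance of both factors also differed within libraries. ZEB1 had 3.35, 2.65 and 3.20 counts per ZEB2 count in shMEX3A libraries, against 1.96, 1.97 and 2.16 in shCtrl libraries. This ratio does not depend on scaling between libraries and did not overlap between the arms (difference of log2 ratios 0.59). An exact two-sided permutation test gave p = 0.1, the smallest value that 3 against 3 libraries allow.

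TWIST1 also fell. It had 11.99, 12.23 and 12.01 CPM in shMEX3A libraries, against 17.9, 15.6 and 15.6 CPM in shCtrl libraries. The shCtrl arm was the more spread, with replicate 1 highest, and no value overlapped. The fall was 1.36-fold (log2 fold change -0.44, SE 0.069, adjusted p = 5.06e-07, edgeR).

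The Snail genes were weakly expressed. SNAI1 had 0.993, 0.892 and 0.797 CPM in shMEX3A libraries and 1.03, 1.21 and 0.823 CPM in shCtrl libraries, from 27 to 45 counts per library. The arms overlapped, and the log2 fold change of -0.18 did not pass the test (95% interval -0.68 to 0.32, adjusted p = 0.522, edgeR). A change inside that interval is thus not excluded. SNAI2 had 2 counts over the 3 shMEX3A libraries and 2 over the 3 shCtrl libraries, each with an exact Poisson interval of 0.242 to 7.22 counts. That is at most 0.0591 CPM in shMEX3A cells and 0.0606 CPM in shCtrl cells by counting error alone, and no fold change is given.

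OVOL1, the factor that opposes ZEB1, was near the detection limit in both arms. It had 10, 7 and 7 counts in shMEX3A libraries and 10, 6 and 10 in shCtrl libraries. A fit without the low-count filter, in which 42.8% of 26222 genes were called, gave a log2 fold change of -0.15 (95% interval -1.25 to 0.96, adjusted p = 0.858, edgeR). Of its exon bases, 27.1% lie under exons of another gene.

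**Figure D2:**
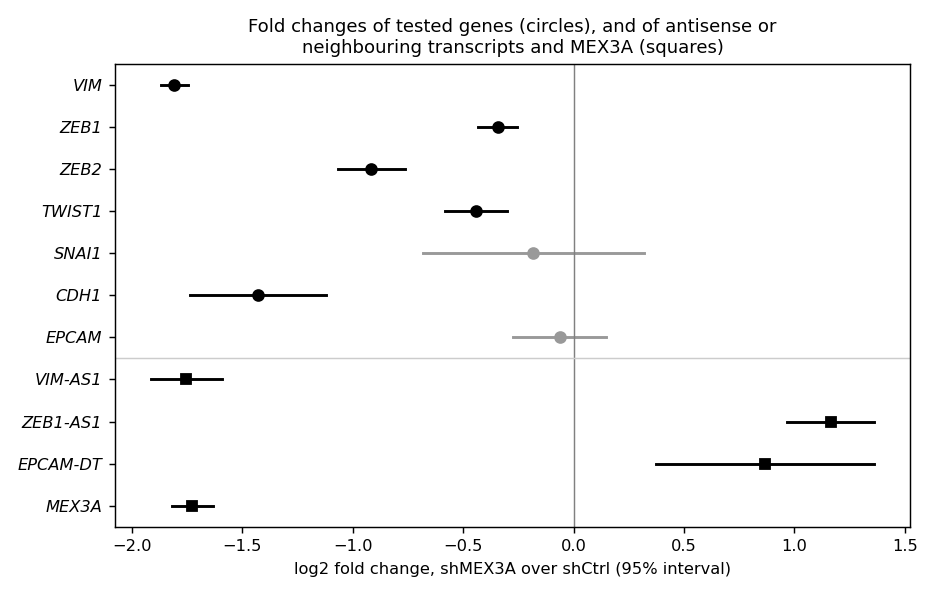
log2 fold change (shMEX3A over shCtrl) with its 95% interval for the 7 tested genes (circles) and, below the line, 3 antisense or neighbouring transcripts and MEX3A (squares), in black where the adjusted p is under 0.05 and grey otherwise. VIM and VIM-AS1 lie together at -1.81 and -1.75, whereas ZEB1 lies at -0.34 and ZEB1-AS1 at 1.16.

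ZEB1-AS1, which starts head to head with the ZEB1 window printed above, rose while ZEB1 fell. It had 8.48, 7.88 and 8.94 CPM in shMEX3A libraries, against 3.61, 3.86 and 3.79 CPM in shCtrl libraries. The arms were fully apart (2.24-fold, log2 fold change 1.16, SE 0.098, adjusted p = 2.37e-13, edgeR). Of its exon bases 9.55%, 366 in number, lie under ZEB1 exons, and further exon stretches lie within the ZEB1 gene. Without the strand setting, reads of the pair cannot be told apart there, and what part this has in the values was not tested. Within libraries ZEB1-AS1 counts came to 24.3%, 21.95% and 24.8% of ZEB1 counts in shMEX3A cells and 7.99%, 8.81% and 8.19% in shCtrl cells. The difference of log2 ratios was 1.51 (exact two-sided permutation p = 0.1, the smallest possible). ZEB2-AS1, which overlaps ZEB2, had 0 counts over shMEX3A libraries and 1 over shCtrl libraries.

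**Figure D3:**
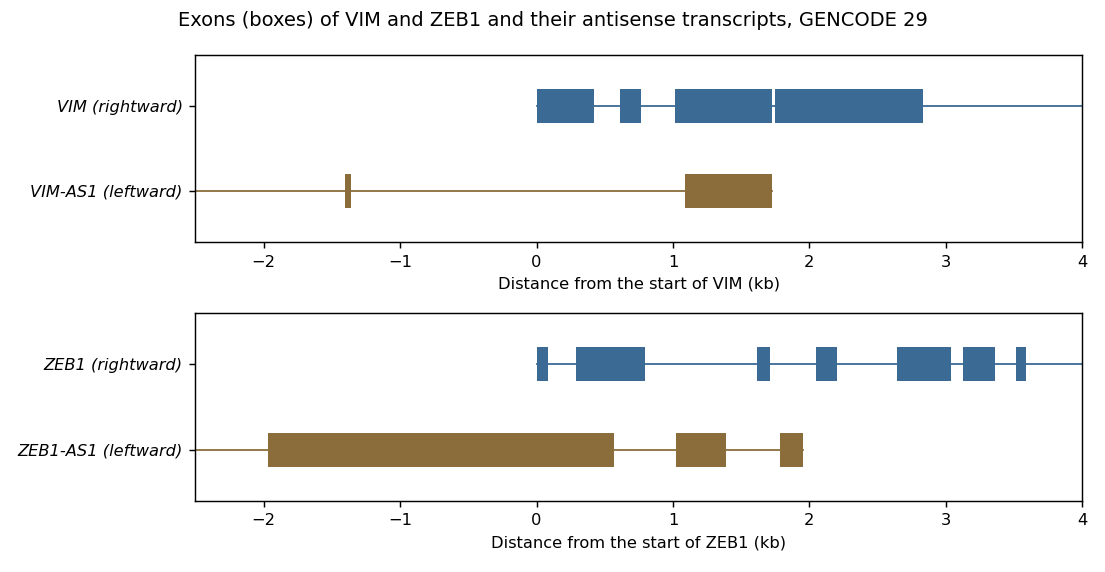
Exons (boxes) of VIM with VIM-AS1 (top) and of ZEB1 with ZEB1-AS1 (bottom) along the distance in kb from the first base of the sense gene in GENCODE 29, cut to the region around the starts. The 2 VIM genes share 641 exon bases and the 2 ZEB1 genes share 366.

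CDH1, which encodes E-cadherin and is the classical target of the repressors above, fell 2.69-fold. It had 1.77, 1.23 and 1.77 CPM in shMEX3A libraries, from 73, 58 and 60 counts, against 4.21, 3.81 and 4.66 CPM in shCtrl libraries, from 184, 135 and 187 counts. Every shMEX3A value was below every shCtrl value, and replicate 2 was the lowest of both arms. The log2 fold change was -1.43 (SE 0.15, adjusted p = 1.13e-10, edgeR). The 95% interval of -1.74 to -1.12 reflects the low counts. CDH1 lies on chromosome 16 from 68737225 to 68835548, with 5.62% of its exon bases under another gene.

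CDH2, the N-cadherin gene, was barely detected in either arm. It had 9, 11 and 6 counts in shMEX3A libraries and 10, 7 and 12 in shCtrl libraries, at 0.213 CPM (exact Poisson interval 0.139 to 0.312) and 0.243 CPM (0.163 to 0.349) over the arms. Without the low-count filter its log2 fold change was -0.21 (95% interval -1.26 to 0.84, adjusted p = 0.782, edgeR) and the counts leave that whole interval unresolved.

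EPCAM did not pass the test. It had 5.81, 5.95 and 4.51 CPM in shMEX3A libraries and 5.81, 5.73 and 5.59 CPM in shCtrl libraries. Replicate 3 was the low one in shMEX3A cells and the other two lay at or above the shCtrl values. The log2 fold change was -0.06 (95% interval -0.27 to 0.15, adjusted p = 0.607, edgeR), and it was 0.04 without shMEX3A replicate 3 and 0.11 with GC and length offsets. CDH1 counts came to 30.4%, 20.7% and 39.2% of EPCAM counts in shMEX3A libraries and 72.4%, 66.5% and 83.5% in shCtrl libraries, with no overlap. The divergent transcript EPCAM-DT rose, with 1.33, 1.083 and 1.56 CPM in shMEX3A libraries and 0.755, 0.621 and 0.773 CPM in shCtrl libraries (log2 fold change 0.87, SE 0.24, adjusted p = 0.00190, edgeR).

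VIM and CDH1 both fell, and the ratio of their counts did not separate the arms. VIM had 642, 925 and 645 counts per CDH1 count in shMEX3A libraries and 976, 1035 and 837 in shCtrl libraries. The arms overlapped, with a difference of log2 ratios of -0.38 (exact two-sided permutation p = 0.2, where 0.1 is the smallest possible). VIM counts per EPCAM count were 195, 192 and 253 in shMEX3A libraries, against 707, 688 and 699 in shCtrl libraries.

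Per kilobase of exon (GENCODE 29, all exons of a gene merged), the order of mean levels in shMEX3A cells was VIM at 221 CPM per kb, TWIST1 at 5.94, ZEB1 at 4.12, EPCAM at 2.15, SNAI1 at 0.530, ZEB2 at 0.469 and CDH1 at 0.257. In shCtrl cells it was VIM at 772, TWIST1 at 8.06, ZEB1 at 5.22, EPCAM at 2.27, ZEB2 at 0.888, CDH1 at 0.684 and SNAI1 at 0.606. OVOL1, CDH2 and SNAI2 were last in both arms, with means of at most 0.0561 CPM per kb, and the OVOL1 and CDH2 libraries overlapped. SNAI1 and ZEB2 overlapped between libraries in shMEX3A cells, as did CDH1 and SNAI1 in shCtrl cells, so these neighbours have no firm order. Per kilobase of the longest transcript ZEB2 stood above SNAI1 in both arms (1.23 against 0.530 in shMEX3A cells).

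By the distance between centred log2 CPM profiles over the 6 libraries, the genes most like VIM were CYS1 (distance 0.042), LYPLA1 (0.067) and PELI1 (0.10), among 10087 genes of at least 3 log2 CPM. They had 9.13, 23.6 and 11.8 CPM in shMEX3A cells and 31.6, 80.8 and 41.4 CPM in shCtrl cells. For CDH1 they were GPC3 (0.25), OSTC (0.32) and COMMD8 (0.34), with log2 fold changes of -1.26, -1.52 and -1.26. With 2 arms such likeness is mainly a like fold change.

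Transcripts of the miR-200 family, known for targeting ZEB1 and ZEB2, were not seen. MIR200CHG, the host transcript of miR-200c, had 0 counts in all 6 libraries, which by counting error allows up to 0.0637 to 0.0885 CPM per library. The rows of MIR200A, MIR200B, MIR200C, MIR141 and MIR429, named after their values were seen, were at 0 too. Libraries made with an mRNA kit, as here, do not measure mature microRNAs.

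Other transcription factors linked to the transition moved both ways. Of 15 listed, 10 were tested, of which 5 were called higher and 4 lower (median log2 fold change 0.16). That is 90% called, against 69.7% of all tested genes (34.0% higher and 35.6% lower), and the difference was not tested. TCF3, a helix-loop-helix partner of TWIST1, rose to 193 ± 1.20 CPM in shMEX3A cells, against 132 ± 1.98 CPM in shCtrl cells (log2 fold change 0.55), and SOX9 rose by 0.60. The homeobox factor PRRX1 fell by 0.61, with 11.1, 11.2 and 12.4 CPM in shMEX3A libraries and 17.7, 17.4 and 17.6 CPM in shCtrl libraries, and TCF12 fell by 0.24 on the log2 scale. With GC and length offsets the values of TCF3 and TCF12 were 0.32 and -0.13, both still called. SNAI3, TWIST2, TCF4, GSC and LEF1 were not tested, at no more than 0.1995 CPM in any library.

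Factors that keep epithelial programs did not move one way. Of 15, 9 were tested, of which 2 rose and 3 fell (median 0.00). That is 55.6% called, against 69.7% of all tested genes (34.0% higher and 35.6% lower), and the difference was not tested. ELF3, an ETS factor of epithelia, had 67.8, 69.3 and 71.8 CPM in shMEX3A libraries, against 38.3, 37.7 and 38.8 CPM in shCtrl libraries (log2 fold change 0.86). GRHL3, of the grainyhead family, rose by 0.98. FOXA2 fell by 2.30 on the log2 scale from few reads, 14 counts in all in shMEX3A cells and 69 in shCtrl cells. OVOL2, GRHL2 and ESRP1 were among the 6 not tested, at most 0.423 CPM.

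**Figure D4:**
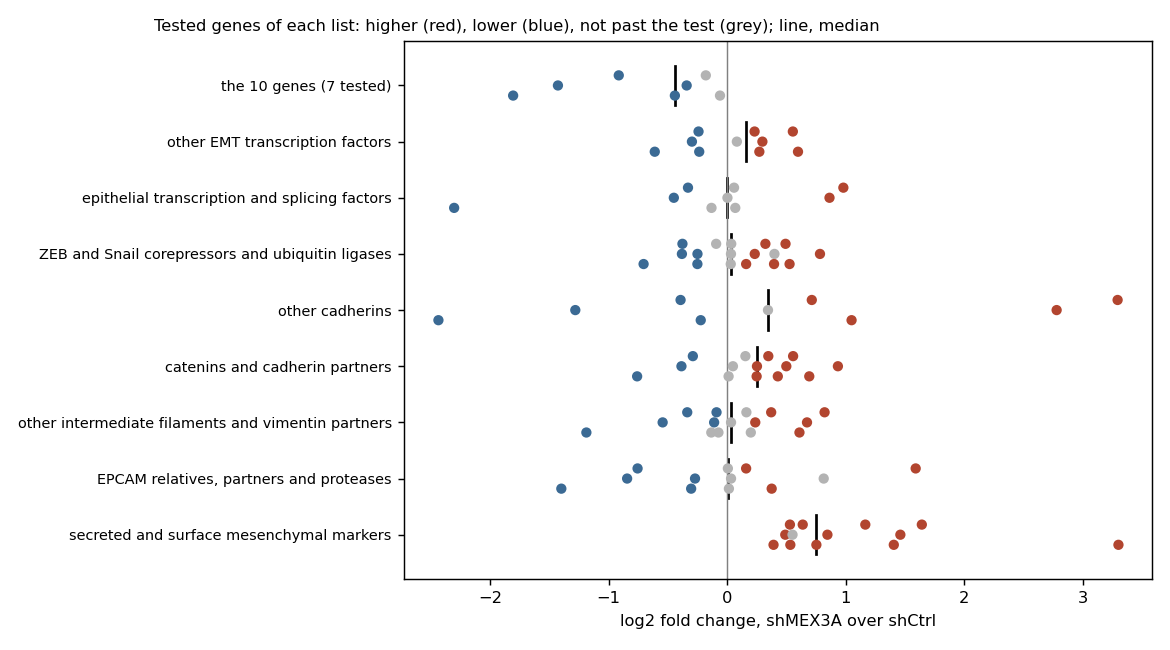
log2 fold change (shMEX3A over shCtrl) of every tested gene in the 10-gene set and in 8 lists of related genes, red where it rose, blue where it fell and grey where the adjusted p was 0.05 or more, with a black line at the median. The plotted medians run from -0.44 for the 10 genes to 0.75 for secreted and surface mesenchymal markers.

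Corepressors and ubiquitin ligases that act with or on ZEB and Snail proteins included 7 higher and 5 lower of 17 tested (median 0.03), so that 70.6% were called, close to the 69.7% of all tested genes. The corepressor CTBP1, which ZEB proteins recruit, rose to 185 ± 2.82 CPM in shMEX3A cells, against 129 ± 2.67 CPM in shCtrl cells (log2 fold change 0.53, and 0.30 with GC and length offsets). EZH2, the histone methyltransferase of a Polycomb complex, fell by 0.71 and BTRC, an F-box protein that marks phosphorylated SNAI1 for breakdown, fell by 0.38 on the log2 scale.

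Cadherins other than CDH1 and CDH2 changed in opposite directions. Of 19 listed, 9 were tested, 4 rose and 4 fell (median 0.34), and 6 of the others had 0 counts in every library. The 88.9% called stands against 69.7% of all tested genes (34.0% higher and 35.6% lower), and the difference was not tested. CDH6 had 0.920, 0.870 and 1.03 CPM in shMEX3A libraries, against 4.92, 4.46 and 5.81 CPM in shCtrl libraries, a 5.41-fold fall (log2 fold change -2.44, SE 0.16). CDH17, the liver-intestine cadherin, had 1.99, 1.85 and 1.53 CPM in shMEX3A libraries and 0.320, 0.226 and 0.224 CPM in shCtrl libraries (log2 fold change 2.78, SE 0.28). CDH16, the kidney-type cadherin, rose to 16.4 ± 0.951 CPM in shMEX3A cells, against 9.99 ± 0.643 CPM in shCtrl cells, and CDH24 fell by 0.39. The endothelial CDH5, also in the endothelial marker list, rose from very few reads, with 54 counts over shMEX3A libraries and 5 over shCtrl libraries. The number of fallers was 2 with DESeq2, without shMEX3A replicate 1 or without shCtrl replicate 3.

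**Figure D5:**
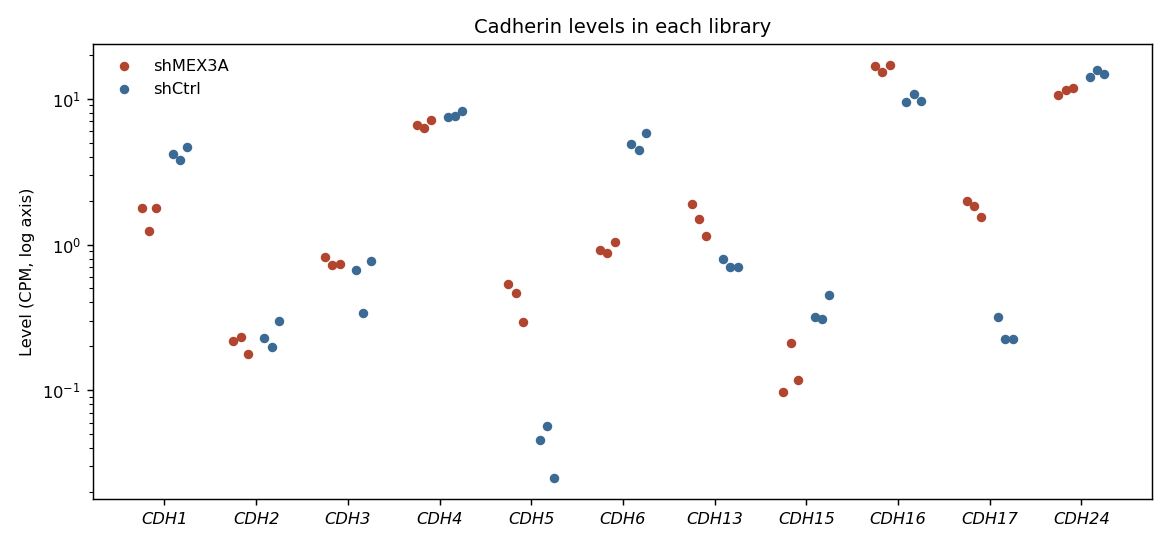
Level in CPM (log axis) of CDH1, CDH2 and the 9 other tested cadherins in the 3 shMEX3A libraries (red) and the 3 shCtrl libraries (blue). CDH1, CDH4, CDH6, CDH15 and CDH24 lie lower and CDH5, CDH13, CDH16 and CDH17 higher in shMEX3A cells, and the CDH2 libraries overlap.

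Of catenins, nectins and other cadherin partners, 8 rose and 3 fell of 14 tested (median 0.25), against 34.0% higher and 35.6% lower among all tested genes, and the difference from those shares was not tested. JUP, or plakoglobin, had 562, 591 and 599 CPM in shMEX3A libraries, against 307, 315 and 296 CPM in shCtrl libraries (log2 fold change 0.93, SE 0.031). The adhesion receptor NECTIN1 rose by 0.69 (0.45 with GC and length offsets). NECTIN3, of the same family, fell by 0.76 and the plakophilin PKP4 fell by 0.39 on the log2 scale.

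Other intermediate filament genes were listed together with crosslinkers and other partners of vimentin. Of 15 tested 5 rose and 5 fell (median 0.03), which is 66.7% called against 69.7% of all tested genes, and the fallers were 3 with DESeq2 or without shMEX3A replicate 1. The cytolinker PLEC, which ties vimentin to other structures, had 955, 960 and 958 CPM in shMEX3A libraries, against 553, 550 and 525 CPM in shCtrl libraries (log2 fold change 0.82). The actin crosslinker FLNA rose by 0.67. With GC and length offsets these values were 0.51 and 0.40. LMNB1, a nuclear lamin, fell by 1.19 and SYNM, a filament protein that assembles with vimentin, fell by 0.34 on the log2 scale, with 27.7% of SYNM exon bases under other genes.

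Of 12 tested relatives, partners and proteases of EPCAM, 3 rose and 5 fell (median 0.01), and the 66.7% called is close to the 69.7% of all tested genes. SPINT1, a Kunitz inhibitor of the protease matriptase, had 16.03, 15.9 and 18.1 CPM in shMEX3A libraries, against 5.97, 5.22 and 5.31 CPM in shCtrl libraries (log2 fold change 1.59, SE 0.081). PSEN2, of the gamma-secretase that cuts EPCAM, rose by 0.37. The tetraspanin CD9 fell to 21.7 ± 1.21 CPM in shMEX3A cells, against 57.1 ± 0.545 CPM in shCtrl cells, and the shedding protease ADAM10 fell by 0.76 on the log2 scale.

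Secreted and surface mesenchymal markers went the other way from VIM and the ZEB genes. Of 15 listed 13 were tested, 12 rose, none fell and MMP2 was at 0.55 with an adjusted p of 0.0976 (edgeR). The median was 0.75, against -0.01 for all tested genes, of which 34.0% rose. NT5E, the surface nucleotidase CD73, had 313, 315 and 313 CPM in shMEX3A libraries, against 119, 110 and 113 CPM in shCtrl libraries (2.75-fold, log2 fold change 1.46, SE 0.032). The list was drawn up with earlier results of these data known, so its direction is not independent evidence. The summed endothelial, mesothelial and leukocyte markers were higher in the same libraries, and the fibroblast sum was lower through FBLN1 while 3 other fibroblast genes rose. Those higher sums were mostly TIE1 for endothelium, MSLN and BNC1 for mesothelium, and CD68 for leukocytes. The rise in the leukocyte sum came from ITGAM (2.01 CPM in shMEX3A cells, 0.659 CPM in shCtrl cells) as well as CD68 (8.46 and 7.07 CPM). Whether RNA of other cells has a part in this result was not tested.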

How the data were processed

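RNA sequencing of 6 TOV21G libraries was analysed from 1 table of raw read counts per gene, which the authors deposited with 1 column per library. The tools named per the submitters' processing notes are STAR, edgeR 4.0.16, HTSeq 2.0.4 and fastp 0.20.0, and the build is GRCh38; their roles, the version of STAR, the annotation and the strand setting were not given in those sources.

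The test was run with edgeR 4.0.16 under R 4.3.3: filterByExpr, TMM scaling, a robust quasi-likelihood fit with 4 residual degrees of freedom, and Benjamini-Hochberg adjustment over all 15679 tested genes at 0.05. TMM takes most genes as unchanged, so all changes are relative and a global shift in mRNA would be missed. CPM are counts per TMM-scaled library. Standard errors came from the F statistic. Pairs of libraries within an arm differed by more than sampling noise (chi-square per degree of freedom 2.69 to 6.15), so none was treated as a duplicate. The test was checked on simulated counts in which few genes changed, unlike here, so that check does not probe the TMM assumption.

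The members and lists were chosen with earlier results of these data known. Named genes are the 10 members, MEX3A, the tested antisense or neighbouring transcripts, the 2 called genes per direction with the smallest p in each list, and 3 genes of most similar profile; some genes this rule names are not reported here. The list members named as not tested or at 0, CDH4, CDH5, CDH13, CDH15, MMP2, PDPN, LRRN4 and the miRNA rows were named after their values were seen. Exons, lengths and GC content came from GENCODE 29 and promoter windows from RefSeq (GRCh38.p14). Reads shared with related gene copies were not examined. Poisson intervals and zero-count limits (3 counts) cover counting error only.

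The alternatives were DESeq2 size factors, upper-quartile factors, DESeq2 1.42.0, limma 3.58.1 voom, the replicate number as a block, no low-count filter, at least 1 CPM in 3 libraries, mitochondrially encoded genes left out, GC and length offsets (14479 genes), and each library left out in turn.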

Additional observations from a re-analysis of the deposited data

How the results depend on the processing

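In every alternative run, 5 of the 10 genes were lower and 0 higher, with MEX3A between -1.68 and -1.85 on the log2 scale, VIM between -1.68 and -1.83, CDH1 between -1.26 and -1.52, ZEB2 between -0.82 and -1.04, TWIST1 between -0.37 and -0.48 and ZEB1 between -0.22 and -0.36. The signs of EPCAM and OVOL1, neither of them called, turned. EPCAM was at 0.11 with GC and length offsets and between -0.13 and 0.043 with 1 library left out (highest without shMEX3A replicate 3). OVOL1 lay between -0.32 and 0.040 with 1 library left out (highest without shMEX3A replicate 2). The cause was not tested. The low counts of SNAI1, SNAI2, CDH2 and OVOL1 limit what can be seen of them. The shared replicate numbers are not a pairing, since the deviations of libraries with 1 number had correlations from -0.077 to 0.077 across the arms and the closest partner carried the same number for 2 of 6 libraries. A fit with the replicate block called 10751 genes (5247 up, 5504 down), against 10925 without it, and changed no call among the 10 genes. GC and length offsets called 10488 genes, of which 51.2% were higher, against 48.8% of calls without them.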

Other observations

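KRT19, a keratin of simple epithelia, varied more between libraries of an arm than between the arms, with replicate 2 lowest in both; it was picked after its values were seen, and the pattern was not tested. It had 3.56, 2.08 and 2.21 CPM in shMEX3A libraries, against 3.96, 2.31 and 2.44 CPM in shCtrl libraries in the same order. The gene did not pass the test between the arms (adjusted p = 0.639, edgeR). MIR205HG, the host transcript of another microRNA that targets ZEB1 and ZEB2, had 0 counts in all shMEX3A libraries and 5, 2 and 3 counts in shCtrl libraries.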
